A study of Mus musculus with 20 samples.

Results

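The comparison described here sets the female mouse line PGK against the male line E14 after both had been converted from embryonic stem cells to epiblast stem cells, and it is restricted to genes of chromosomes 1 to 19. Members were the libraries of day 10 or later, 12 of the 20 in the series, 6 of each line, and 22137 of the 23361 entries of the count tables lay on an autosome. After removal of low counts 13649 genes were tested, 13095 of them autosomal. All cells had been kept in 2i medium, which holds them in the naive state, and were then plated on fibronectin in N2B27 with activin A and Fgf2 and passaged for up to 30 days. Both lines were followed in the differentiation experiments diff2 and diff3. The PGK libraries were taken at day 10 in both, at day 23 in diff2 and day 21 in diff3, and at day 29 in both. The E14 libraries were taken at day 10 in both, at day 21 in diff2 and day 19 in diff3, and at day 27 in diff2 and day 30 in diff3. These make 3 stages (day 10, days 19 to 23, days 27 to 30), which entered the fit as a block. Each sex is present as a single line, so sex, genetic background and culture history cannot be told apart, and libraries of 1 line and experiment are successive stages of that experiment, so p-values measure the spread between these libraries.

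Epiblast stem cells represent the primed pluripotent state, which resembles the epiblast after implantation, and they depend on activin and Fgf2. Imprinted genes are expressed mainly from the copy inherited from 1 parent, because DNA methylation laid down in the germ line differs between the copies. Long culture of pluripotent cells is known to disturb this methylation. Many imprinted genes act on growth: Igf2 is a growth factor, while Igf2r, Grb10, Cdkn1c and H19 limit growth. Cultured pluripotent cells are also known to gain or lose whole chromosomes or parts of them.

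Depth ranged from 11847559 to 26936415 counts per library. The label check was met in all 12 libraries: Xist, the RNA that silences an X chromosome, measured 412 to 1580 CPM (counts scaled to a common library total) in PGK and 0.548 to 5.74 CPM in E14, and the Y-linked gene Ddx3y measured at most 0.126 CPM in PGK and at least 89.7 CPM in E14. Of the Y-linked genes looked at, Kdm5d was at most 0.409 CPM in E14 as well. Both lines carried the primed markers, with Fgf5 at 301 to 438 CPM in PGK and 239 to 411 CPM in E14, and both were low for the naive marker Klf4, at 2.26 to 4.56 and 1.91 to 3.08 CPM. Of the 12 libraries, PGK diff3 at day 29 had the fewest genes with a count, 13349, and PGK diff2 at day 23 had 14585, against 15238 to 16620 in the others. The day 29 diff3 library also stood apart on the first principal component.

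In the primed cells 262 autosomal genes differed between the lines, which is 2% of those tested. Of these, 172 were higher in PGK (1.31%) and 90 were lower (0.687%), by the edgeR quasi-likelihood test with Benjamini-Hochberg adjustment over all tested genes and a threshold of 0.05. The differences of genes higher in PGK were mostly small, with a median log2 fold change of 0.72, and only 45 of the 172 exceeded a 2-fold difference. The lower genes had a median size of 1.19 on the log2 scale, and 56 of the 90 exceeded 2-fold. All 262 had the same sign at each of the 3 stages in the fit. The stage values come from the same 12 libraries that selected these genes, so this agreement is not separate evidence that a difference lasts. In 127 of the higher and 48 of the lower genes the 6 PGK values and the 6 E14 values did not overlap, which held for 2.5% of all tested autosomal genes. Chromosome 8 held 114 of the 172 higher genes and none of the lower ones, and imprinted genes made up 5 of the 12 largest increases and 4 of the 12 largest decreases that met the naming rule given under the processing.

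The number of genes depended on single libraries. It was 103 without PGK diff2 at day 23, 105 without E14 diff3 at day 30, 108 without PGK diff3 at day 21, 123 without E14 diff2 at day 21, 134 without E14 diff3 at day 19 and 149 without PGK diff3 at day 29. It was 405 without E14 diff2 at day 10 and 784 without E14 diff3 at day 10. Without the PGK libraries of diff2 at day 23 and diff3 at day 29, which had the fewest detected genes, 26 genes were called, 20 higher and 6 lower.

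**Figure D1:**
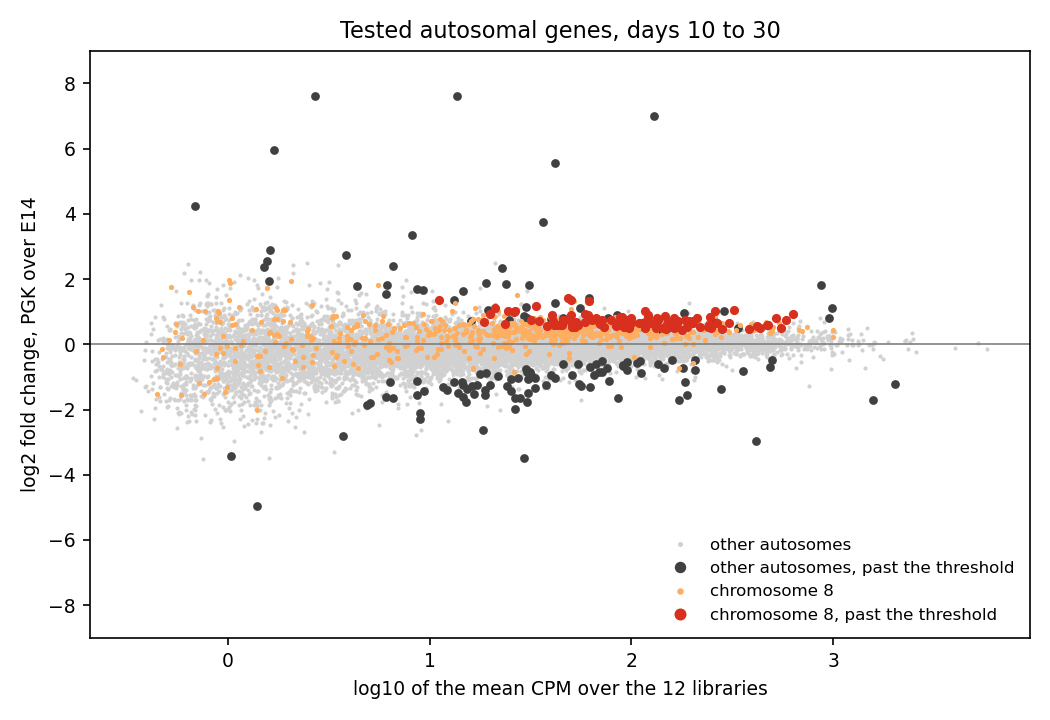
Each point is 1 of the 13095 tested autosomal genes, with the log10 of its mean CPM over the 12 libraries on the x axis and its log2 fold change (PGK over E14) on the y axis. The 114 red points of chromosome 8 lie in a band just above 0, while the dark points far from 0 are on other autosomes and include H19 and Plagl1.

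Plagl1, H19 and Nnat, the largest increases in PGK under the naming rule, and Cdkn1c and Igf2, the largest decreases, are imprinted genes. Among paternally expressed imprinted genes, 10 of 30 tested were higher in PGK and 1 was lower, and the list's median was 0.62 on the log2 scale (all tested autosomal genes: −0.02). Among maternally expressed imprinted genes, 6 of 26 tested were lower in PGK and 1 was higher, with a median of −0.32. Over all tested autosomal genes 1.31% were called higher in PGK and 0.687% lower. Of the 33 paternally expressed genes with counts on autosomes 3 fell below the count filter, and of the 34 maternally expressed genes 8 did. The lists were assembled with earlier results of these data known and are not independent evidence of a direction.

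The promoter windows of 3 of these genes are shown because the genes lie on different chromosomes, were called in opposite directions (Plagl1 and Nnat higher and Igf2r lower in PGK), and are known to be regulated by methylation of CpG sites. Each window holds the 250 bases before the transcription start in RefSeq (GRCm38.p6), 5′ to 3′ on the gene's strand, with every CG in capitals, a pair that reads the same on both strands. Plagl1 lies at chr10:13090582-13090831 on the plus strand with 19 CG, a number reached by 20.1% of 25748 autosomal promoter windows. Nnat lies at chr2:157559828-157560077 on the plus strand with 12 CG, reached by 34.5%. Igf2r lies at chr17:12769707-12769956 on the minus strand with 27 CG, reached by 8.44%. These 3 windows do not stand for the called imprinted genes. In the 13 of those genes with a window the median was 10 CG, against 16 in 9720 tested autosomal genes with a window. Methylation was not measured in the libraries used here.
Plagl1: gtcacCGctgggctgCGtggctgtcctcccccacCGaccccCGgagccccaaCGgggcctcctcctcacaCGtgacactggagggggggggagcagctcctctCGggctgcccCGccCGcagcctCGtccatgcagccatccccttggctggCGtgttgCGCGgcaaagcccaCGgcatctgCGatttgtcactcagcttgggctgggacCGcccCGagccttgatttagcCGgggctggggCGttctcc
Nnat: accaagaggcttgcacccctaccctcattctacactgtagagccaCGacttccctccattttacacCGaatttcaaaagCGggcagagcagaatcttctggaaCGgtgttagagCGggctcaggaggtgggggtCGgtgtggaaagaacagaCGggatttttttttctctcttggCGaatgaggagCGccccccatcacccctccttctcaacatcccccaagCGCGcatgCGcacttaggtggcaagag
Igf2r: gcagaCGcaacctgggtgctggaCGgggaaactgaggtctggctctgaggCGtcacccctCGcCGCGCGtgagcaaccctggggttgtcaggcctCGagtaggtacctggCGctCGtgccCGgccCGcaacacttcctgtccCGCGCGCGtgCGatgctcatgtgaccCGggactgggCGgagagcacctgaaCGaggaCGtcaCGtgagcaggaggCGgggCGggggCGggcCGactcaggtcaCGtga

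Plagl1, a paternally expressed zinc finger gene that restrains the cell cycle (chromosome 10, 13060504 to 13131694, GENCODE M21), measured 18.2 and 18.7 CPM at day 10, 25.6 and 25.7 CPM at days 19 to 23, and 39.8 and 35.6 CPM at days 27 to 30 in PGK diff2 and diff3. In E14 it measured 0.0832, 0.196, 0.334 and 0.153 CPM at the first 2 of these stages and 0 in both libraries of days 27 to 30. Every PGK value exceeded every E14 value by a wide margin. The log2 fold change was 7.61 (SE 0.55, adjusted p = 8.3e-06, edgeR), and this gene passed the threshold in all 27 alternative settings.

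H19, a maternally expressed noncoding RNA that limits growth (chromosome 7, 142575529 to 142578143), measured 282 and 157 CPM at day 10, 278 and 183 CPM at days 19 to 23, and 276 and 361 CPM at days 27 to 30 in PGK. In E14 it measured 3.08, 0.665, 0.928, 9.4, 0.673 and 0.611 CPM in the same order. All 6 PGK libraries were high, and the E14 library of diff3 at day 19 was the highest of its line. The log2 fold change was 6.99 (SE 0.70, adjusted p = 0.000228, edgeR).

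Igf2, the paternally expressed growth factor gene beside H19 (chromosome 7, 142650766 to 142666816), went the other way. It measured 33.4, 33.1, 101, 98.2, 137 and 43.8 CPM in PGK and 342, 136, 801, 2460, 217 and 560 CPM in E14. The lines met at 1 point only, where the highest PGK library at 137 CPM lay just above the lowest E14 library at 136 CPM. The log2 fold change was −2.97 (SE 0.45, adjusted p = 0.00459, edgeR). Igf2as, annotated across part of Igf2, was also lower, by 2.11 on the log2 scale (adjusted p = 0.0393, edgeR). Whether the counting used strand is not given in the sources used here, so reads of Igf2 and Igf2as cannot be told apart, and Igf2as lost its call in 7 of 12 fits that left out 1 library (adjusted p up to 0.129).

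Igf2r, the maternally expressed receptor that clears Igf2 (chromosome 17, 12682406 to 12769664), measured 91.7, 55.8, 69.3, 73.6, 121 and 60.6 CPM in PGK and 326, 98.2, 302, 312, 256 and 299 CPM in E14. A single E14 library, diff3 at day 10, fell within the PGK range. The log2 fold change was −1.72 (SE 0.26, adjusted p = 0.00459, edgeR). Cdkn1c, a maternally expressed inhibitor of cyclin-dependent kinases (chromosome 7, 143458339 to 143461050), measured 0.76 to 11.2 CPM in PGK (median 5.47) and 35.1 to 81.9 CPM in E14 (median 47.4), without overlap. Its log2 fold change was −3.48 (SE 0.58, adjusted p = 0.00828, edgeR).

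Grb10, a maternally expressed adaptor that dampens insulin and growth factor receptors (chromosome 11, 11930508 to 12038683), measured 349, 640, 755, 225, 972 and 1040 CPM in PGK and 736, 887, 3830, 2980, 3590 and 2870 CPM in E14. The lines overlapped through the E14 libraries of day 10, and the E14 libraries after day 10 were all above the PGK ones. The log2 fold change was −1.70 (SE 0.36, adjusted p = 0.0298, edgeR), with adjusted p up to 0.100 and the call lost in 8 of 12 fits without 1 library. Slc22a18, a transporter gene beside Cdkn1c, was at 0 in 4 of 6 PGK libraries and at 1.55 to 5.11 CPM in E14. Copg2, a coat protein subunit whose annotated span overlaps that of Mest, fell by 0.66 on the log2 scale, and H13, a signal peptide peptidase, fell by 0.74. The calls of Slc22a18, Copg2 and H13 were lost in 8, 10 and 8 of the 12 fits.

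Nnat, a paternally expressed membrane protein gene of neural and endocrine cells (chromosome 2, 157560078 to 157562522), measured 69.8, 105, 124, 110, 3.27 and 76.5 CPM in PGK and 4.32, 1.37, 1.82, 1.18, 0.817 and 1.26 CPM in E14. In 5 PGK libraries it was high, and in PGK diff2 at day 29 it was within the range of E14. The log2 fold change was 5.54 (SE 0.64, adjusted p = 0.000863, edgeR). The same PGK library held the lowest PGK values of Nap1l5, at 0.377 CPM against 1.6 to 4.67 CPM in the other PGK libraries, and of Peg13, at 0.88 against 3.38 to 9.14 CPM. Peg13 had 3 counts in all 6 E14 libraries together against 639 in PGK. Nap1l5 was called at an adjusted p of 0.0461, and at 0.0534 with the experiment as a block (edgeR). It lost its call in 10 of 12 fits without 1 library (adjusted p up to 0.132).

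The other called paternally expressed genes rose less than Nnat. Mest, a hydrolase-like gene that accompanies growth of embryonic tissue, measured 908 to 1840 CPM in PGK (median 1310) and 121 to 672 CPM in E14 (median 418), a log2 fold change of 1.83 (SE 0.30, adjusted p = 0.00764, edgeR). Peg10, a gene derived from a retrotransposon and required in the placenta, measured 1050 to 1900 CPM in PGK and 411 to 927 CPM in E14, a log2 fold change of 1.11. Ndn (1.28), Zrsr1 (1.06) and Impact (1.02) did not overlap between the lines either, and Peg12 (1.70) did. These are log2 fold changes of PGK over E14, and of these genes Peg12 was the one that lost its call when single libraries were left out, in 4 of 12 fits.

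Not every imprinted gene passed the test. In the Dlk1-Dio3 cluster on chromosome 12 the maternally expressed noncoding RNA Meg3 averaged 371 CPM in PGK and 360 CPM in E14, with a log2 fold change of 0.13 (SE 0.32, adjusted p = 0.895, edgeR). Snrpn, next to Ndn on chromosome 7, had a log2 fold change of 0.56 that missed the threshold (adjusted p = 0.0749), and Peg3 had 0.68 (adjusted p = 0.405). Among the 3 paternally and 8 maternally expressed genes below the count filter, Zim1, a zinc finger gene, had 23 counts in the PGK libraries and 891 in those of E14, and Rasgrf1 had 9 and 140. Neither was tested, and the others below the filter are not reported here, so no direction is drawn from them.

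**Figure D2:**
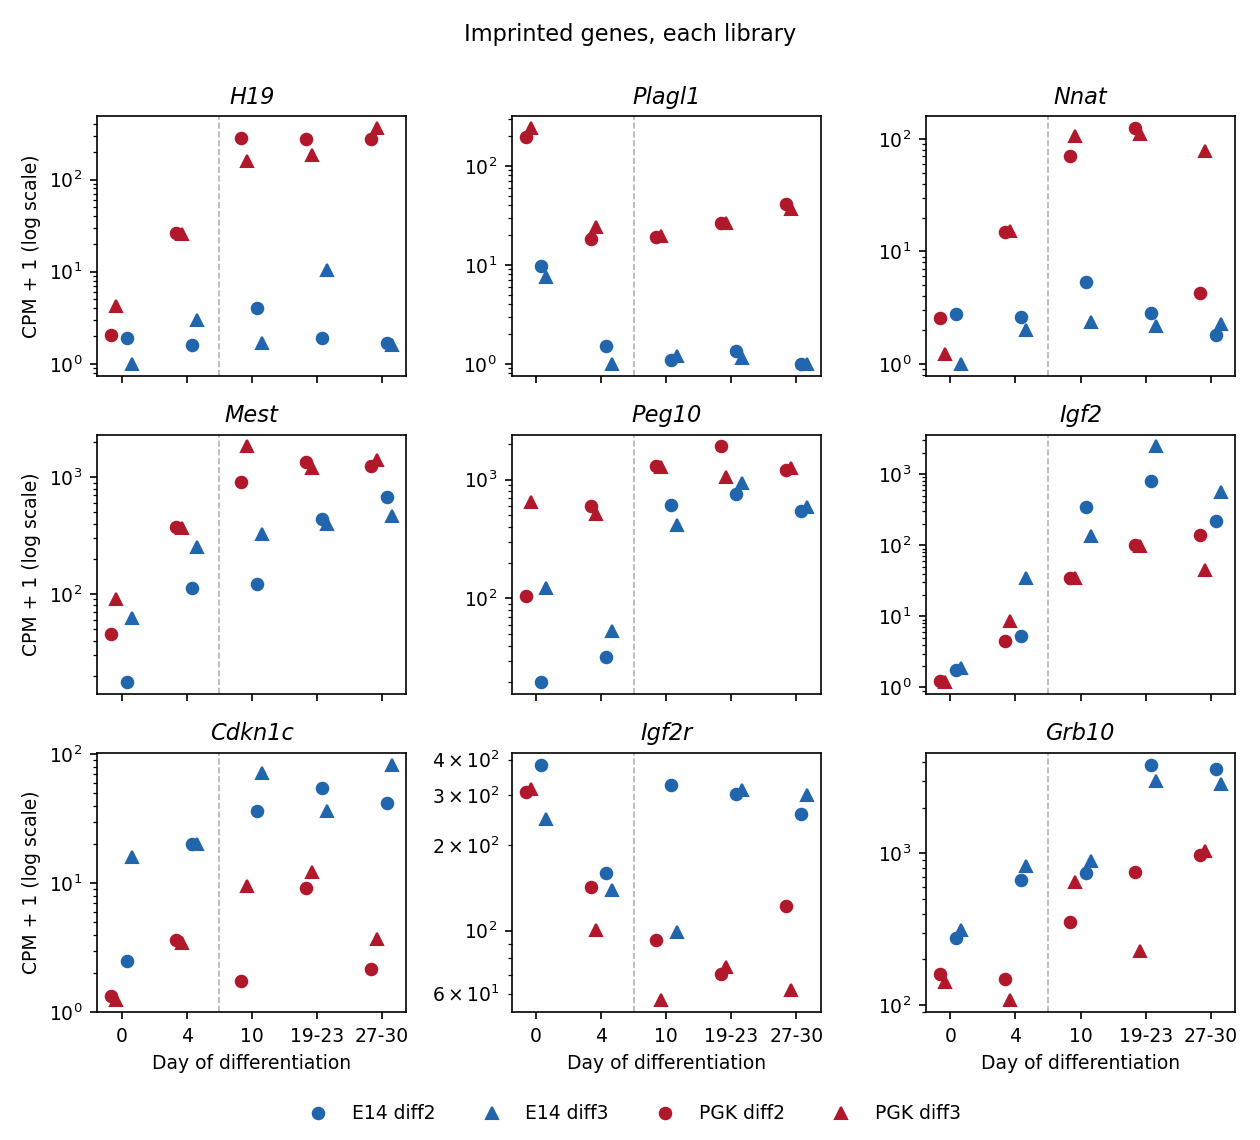
Each panel shows 1 imprinted gene, with the stage on the x axis (day of differentiation) and CPM + 1 on a logarithmic y axis, and each point is 1 of the 20 libraries (red PGK, blue E14, circles diff2, triangles diff3). To the right of the dashed line are the 12 libraries compared, where H19 and Plagl1 are high in all 6 PGK libraries and Nnat is low in PGK diff2 at day 29.

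**Figure D3:**
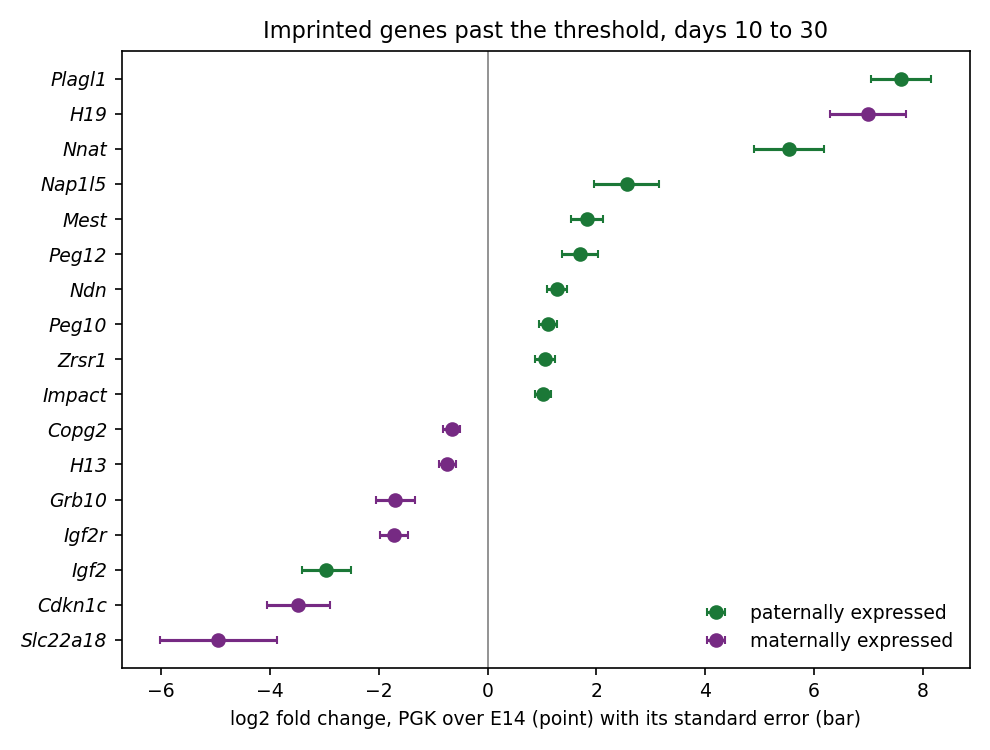
Points are log2 fold changes of PGK over E14 for imprinted genes past the threshold, and bars are their standard errors. Green points are paternally expressed and purple points maternally expressed genes. Peg13 is not drawn because it had 3 counts in E14.

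Chromosome 8 was higher in PGK along its whole length. Of its 724 tested genes 114 were called (15.7%), all higher in PGK, against 1.2% of genes on other autosomes. The median log2 fold change was 0.43 (1.35-fold), 85.2% of the genes were above 0, and all 10-Mb windows had a median above 0, from 0.22 to 0.53. In each library the median deviation of chromosome 8 genes on the log2(CPM + 1) scale, relative to all autosomal genes, was 0.211 ± 0.038 (SD, n = 6) in PGK and −0.206 ± 0.035 (SD, n = 6) in E14. The difference was 0.417, with an exact permutation p of 0.00216, the smallest that 6 against 6 allows, and 0.0103 after adjustment over 19 autosomes. DNA copy number was not measured in the files used here.

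The elevation of chromosome 8 was also seen before day 10. Between libraries of the same stage and experiment the median log2 ratio of its genes with at least 10 CPM was 0.382 to 0.505 in the 6 late pairs, 0.431 and 0.428 at day 4, and 0.383 and 0.23 at day 0. The day 0 value of 0.23 involves the E14 library with 3376500 counts, and it lay within the range of the other autosomes at that stage, as the plot of pair medians shows.

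Genes on chromosome 8 named here were chosen after their values were seen, except where they belong to a list. Dctd, which deaminates dCMP for thymidylate synthesis, measured 81.0, 89.2, 75.2, 92.5, 85.4 and 103 CPM in PGK and 31.8, 36.7, 35.9, 34.4, 39.5 and 36.0 CPM in E14. Its values were steady within each line and far apart between them, with a log2 fold change of 1.31 (SE 0.12, adjusted p = 8.04e-05, edgeR). Psmb10, an immunoproteasome subunit, had a log2 fold change of 1.35, and Zfp703, a transcriptional repressor, 1.43. From the lists, the basement membrane collagens Col4a1 (1.03) and Col4a2 (0.84), whose annotated spans overlap by a few bases, and Dusp4 (0.61), a phosphatase that limits ERK, also lie on chromosome 8. Col4a1, Col4a2 and Dusp4 lost their calls in 4, 2 and 9 of 12 fits without 1 library.

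**Figure D4:**
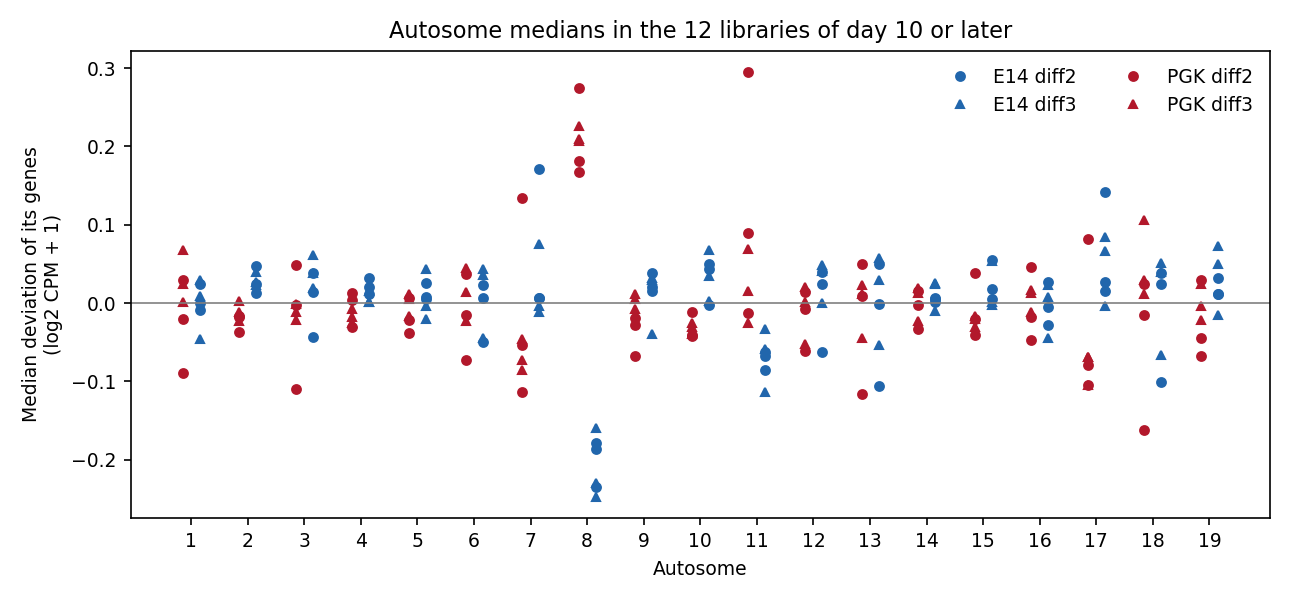
For each autosome on the x axis, points are the 12 libraries and the y axis is the median deviation of the genes of that autosome (log2 CPM + 1) relative to all tested autosomal genes. Chromosome 8 separates the 6 PGK libraries from the 6 E14 libraries, and on chromosome 11 PGK diff2 at day 29 stands at 0.295.

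Chromosome 11 was also higher in PGK, by 0.142 on average (adjusted exact permutation p = 0.0103), but unevenly. The PGK median was 0.295 in diff2 at day 29 and −0.025 to 0.09 in the other 5 PGK libraries, while E14 lay between −0.113 and −0.033. In that library's pair the median log2 ratio was 0.411, and 93.7% of the chromosome 11 genes with at least 10 CPM were higher in PGK. Without it the difference was 0.1. The difference for chromosome 2 was −0.046 and for chromosome 10 −0.065, both with an adjusted exact permutation p of 0.0103. These differences are small, and they are relative to all tested autosomal genes, those of chromosomes 8 and 11 included. Chromosomes 19, 3, 15 and 9 had differences of −0.041 to −0.034 that missed the threshold. Larger negative differences on chromosome 17, −0.113 (adjusted exact permutation p = 0.0576), and chromosome 7, −0.080 (0.239), missed the threshold. Without PGK diff2 at day 10, the highest PGK library on both, they were −0.141 and −0.108, each at an adjusted exact permutation p of 0.0103. With any other single library left out, both missed the threshold. The adjusted exact permutation p was then 0.0548 to 0.137 for chromosome 17 and 0.23 to 0.373 for chromosome 7. On chromosome 11, 15 genes were higher and 3 lower (1.64% called).

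**Figure D5:**
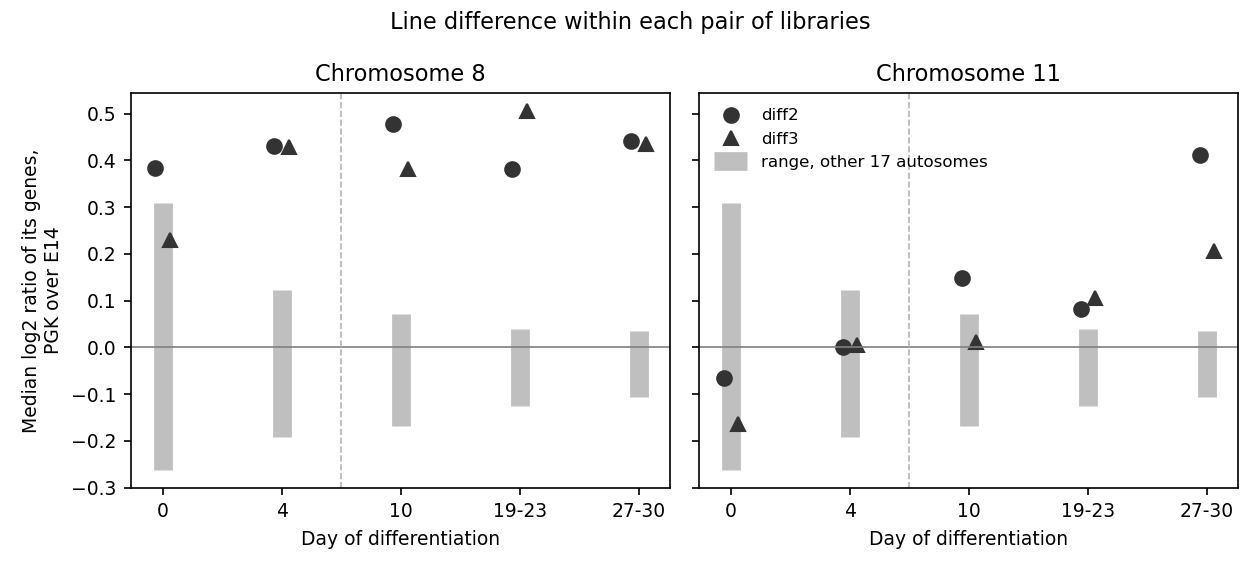
Each point is the median log2 ratio (PGK over E14) of the genes of chromosome 8 or 11 with at least 10 CPM in 1 pair of libraries of the same stage and experiment, relative to all autosomal genes, and grey bars span the medians of the other 17 autosomes. Chromosome 8 stays between 0.382 and 0.505 from day 10 on, and chromosome 11 reaches 0.411 at day 29 in diff2.

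Outside chromosome 8, 58 genes were higher and 90 lower. Among the 12 largest increases that met the naming rule were Col5a2 (3.75), a fibrillar collagen subunit, Ncoa4 (2.39), the receptor that delivers ferritin to lysosomes, Lgals3 (1.88), a galactose-binding lectin, and Cdkn2a (1.85), a locus of cell cycle inhibitors, given as log2 fold changes. Col5a2 measured 22.5 to 108 CPM in PGK (median 66.3) and 1.07 to 8.32 CPM in E14 (median 5.56), without overlap (SE 0.48, adjusted p = 0.0019, edgeR). It was the only one of 35 tested fibroblast, feeder and smooth muscle markers that passed, a share near the 2% called over all tested autosomal genes. The summed level of that list was 3417.1 to 4849.5 CPM in PGK and 1995.2 to 7003.8 CPM in E14. In bulk libraries, fewer cells of a type and less RNA per cell cannot be told apart. Cdkn2a measured 41.6, 42.0, 44.4, 35.6, 17.6 and 42.0 CPM in PGK and 7.32, 11.2, 8.91, 11.4, 12.6 and 10.7 CPM in E14. PGK diff2 at day 29 was its lowest PGK library, still above E14. Rpl30, a ribosomal protein gene, had a log2 fold change of 2.35, but it has near-identical copies between which reads may be split, so its value is uncertain. Tagap1 (1.66) and Gbp3 (1.64), an interferon-induced GTPase, completed the named increases beside the imprinted ones.

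Decreases beyond the imprinted genes were led by Sycp3 (−2.62), a component of the synaptonemal complex of meiotic cells. It measured 1.33 to 14.3 CPM in PGK and 16.6 to 56.8 CPM in E14, without overlap (SE 0.55, adjusted p = 0.0298, edgeR), and lost its call in 7 of 12 fits without 1 library. It was the 1 germ line gene called of 9 tested, and 26 more of that list fell below the count filter. Over all tested autosomal genes 0.687% were called lower, and 1 call among 9 genes says little about the list. Dtna (−2.28), a dystrophin-associated protein, Enpp2 (−1.99), which makes lysophosphatidic acid, and Pde1b (−1.64), a cyclic nucleotide phosphodiesterase, followed, and lost their calls in 7, 9 and 10 of those fits. Atp1b2 (−1.77), a sodium pump subunit, was lost in 1 fit, without PGK diff2 at day 23 (adjusted p = 0.0528). Dhrs7 (−1.76), a dehydrogenase, and Zfp946 (−1.65), a zinc finger gene, kept their calls in all 12.

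A run of neighbouring genes on chromosome 2 was lower in PGK. Between 30 and 31 Mb, 5 of 27 tested genes were called, all lower: Ntmt1, Tor1a, Tor1b, Usp20 and BC005624. Over all tested autosomal genes 0.687% were called lower. Other 1-Mb windows also held several calls. Between 6 and 7 Mb on chromosome 17, 2 of 10 tested genes were higher and 2 lower. Between 142 and 143 Mb on chromosome 7, H19 was higher and Igf2 and Igf2as lower among 10 tested. This run was noticed after the values were seen. Tor1b, an ATPase of the endoplasmic reticulum related to Tor1a, measured 34.4, 24.5, 27.8, 24.9, 24.5 and 26.6 CPM in PGK and 58.4, 60.1, 50.6, 52.1, 49.8 and 45.2 CPM in E14. Its log2 fold change was −0.94 (SE 0.12, adjusted p = 0.00225, edgeR), and at day 0 it was −1.74 (adjusted p = 0.025). Ntmt1, which methylates protein N termini, had −0.86 in the late libraries and −1.94 at day 0 (adjusted p = 0.024). The values of all 5 genes of the chromosome 2 run did not overlap between the lines, which held for 2.5% of all tested autosomal genes.

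Genes of pluripotency and of other lineages mostly did not pass the test. None of 23 naive, 14 core, 30 primed, 22 primitive streak and mesoderm, 16 neuroectoderm and 8 trophoblast genes was called, where edgeR found 5, 2, 5, 5, 4 and 3 at an unadjusted p under 0.05. Over all tested autosomal genes 2% were called, and 2051 of 13095 had an unadjusted p under 0.05 in edgeR. At a share of 2%, lists of this size hold few calls or none, so counts of 0 are not particular to these lists. The median log2 fold change was 0.64 in the streak and mesoderm list and −0.50 in the neuroectoderm list, against −0.02 over all tested autosomal genes, and 0.02 to 0.20 in the other 4. Sox2, a core factor, had a log2 fold change of −0.89 (adjusted p = 0.0648) and Mixl1, a streak gene, 2.50 (adjusted p = 0.0942). Of 25 endoderm genes, Col4a1 and Col4a2 were the 2 called. None of 21 DNA methylation genes, 27 Nodal and activin targets and 25 Wnt targets was called, with 3, 2 and 2 at an unadjusted p under 0.05. By DESeq2 816 autosomal genes were called in all, so counts of 0 hold for edgeR. The summed level of the endoderm list was 2664.2 to 3538.8 CPM in PGK and 2135.4 to 4439.3 CPM in E14.

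Most interferon response and major histocompatibility genes did not pass the test. The median log2 fold change was 0.39 in the interferon list and −0.53 in the histocompatibility list, against −0.02 over all tested autosomal genes. In edgeR, 9 of 28 and 7 of 20 had an unadjusted p under 0.05, against 2051 of all 13095. Of all tested autosomal genes 1.31% were called higher in PGK and 0.687% lower. Of 28 interferon response genes 25 were not called and 3 were higher, Gbp3, Ifih1 (1.53), a sensor of double-stranded RNA, and Trim25 (0.81), a ubiquitin ligase of antiviral signalling. Ifih1 lost its call without PGK diff2 at day 23 (adjusted p = 0.0529), and Trim25 lost it in 2 fits (adjusted p up to 0.0532). Of 20 major histocompatibility genes 18 were not called and 2 were lower, H2-K1 (−0.89) and H2-D1 (−1.28). H2-D1 overlapped between the lines and lost its call in 5 of 12 fits without 1 library (adjusted p up to 0.0767). H2-K1 measured 54.6 to 91.9 CPM in PGK and 123 to 190 CPM in E14. These genes belong to a family of near-identical copies that differ between mouse strains, so their values are uncertain. In the detoxification list the median was −0.17, and 10 of 23 tested genes had an unadjusted p under 0.05 in edgeR. Among these 23 genes Mgst1 (−1.12) was called, at an adjusted p of 0.0476, and at 0.0643 with the experiment as a block (edgeR). It lost its call in 11 of 12 fits without 1 library (adjusted p up to 0.148).

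Within single stages fewer genes passed, with 2 libraries against 2. At day 10, 17 autosomal genes were called (0.13%), among them H19, Plagl1, Col4a1 and, lower, Atp1b2. Lhx1, a transcription factor gene of the streak and mesoderm list, was also called at day 10 (log2 fold change 3.57, adjusted p = 0.0168, edgeR), while over the 3 stages it had 1.27 (adjusted p = 0.263). At days 19 to 23 the 2 genes called (0.0153%) were Plagl1 and Apoe (−2.10), and with the experiment as a block 5 were called. At days 27 to 30 the 2 genes called (0.0153%) were Plagl1 and H19 (8.99). No gene passed the test for a change of the line difference between stages (0%), where 554 had an unadjusted p under 0.05 in edgeR. Without a filter on low counts that test called 39 genes, without E14 diff2 at day 10 it called 20, without E14 diff3 at day 10 it called 8, and without E14 diff2 at day 21 it called 1.

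In 2i, before differentiation, most of the higher genes had the same sign, and the lower genes were more evenly divided. In the fit of all 20 libraries 142 of 171 higher genes with a day 0 value had the same sign at day 0, and so did 51 of 89 lower genes. The share over all tested genes was not determined, so these counts have no background to be set against. Chromosome 8 held 114 of the 172 higher genes. Of its genes with at least 10 CPM, 74.8% in diff2 and 61.8% in diff3 were higher in PGK at day 0. At day 0, 2 of the higher genes passed the test, Plagl1 and Nefm, and 3 of the lower genes, Fnbp1, Ntmt1 and Tor1b. The share of all tested genes called at day 0 was not determined, so these counts have no background either. Prnp, which was lower in the late libraries, was higher in PGK at day 0. The late calls of Nefm and Prnp were lost in 8 and 10 of 12 fits without 1 library. Plagl1 measured 194 and 240 CPM in PGK and 8.65 and 6.52 CPM in E14 at day 0. Nnat, by contrast, measured 1.54 and 0.234 CPM in PGK and 1.79 and 0 CPM in E14 at day 0, and H19 1.06 and 3.23 against 0.895 and 0 CPM. A test of the late line difference against that of day 0 called 9 of 12828 autosomal genes (0.0702%). The late difference was shifted towards PGK in 3 of them (0.0234%) and towards E14 in 6 (0.0468%), and neither Nnat nor H19 (adjusted p = 0.159) passed it.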

How the data were processed

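Polyadenylated RNA was sequenced in 20 libraries of the lines PGK and E14, and 12 of day 10 or later were compared. The authors deposited raw counts per gene, one table per line, and the tables were joined on gene name. The submitters' processing notes name CASAVA 1.8.2, Cuffdiff and DESeq2 and the build GRCm38 (mm10); which aligner and annotation were used, and whether strand was counted, is not stated in those notes or the labels. The deposited normalized and log2 tables were not used, because each line was normalized on its own. Of 23361 entries, 27 bore dates as names and 4 a repeated name and were left out. Chromosomes came from GENCODE M21, then from RefSeq symbols and synonyms.

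CPM are counts scaled to a common library total. Line differences were tested with edgeR 4.0.16 in R 4.3.3 (TMM factors, filterByExpr with a minimum count of 10, robust quasi-likelihood fit, stage as a block, 8 residual degrees of freedom), with Benjamini-Hochberg adjustment over 13649 genes and a threshold of 0.05. The common biological coefficient of variation was 0.36. On simulated data the fit recovered 56 of 100 genes with a 2-fold change and 88 of 100 with a 4-fold change, with 9 false calls among 13649 genes, so a gene not called may still differ. Stage and 2i comparisons used fits with 1 mean per line and stage. Chromosome medians used log2(CPM + 1) with exact two-sided permutation tests. Alternatives used DESeq2 1.42.0 and limma 3.58.1 (voom).

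Named were H19 and Plagl1, the 12 largest rises and 12 largest falls past the threshold with at least 10 CPM in the higher line and the same sign in all 6 pairs (without predicted, Rik and pseudogene symbols), up to 5 members per list with the smallest adjusted p, all imprinted genes past the threshold, and up to 6 genes against 2i. Not all genes the rule names are reported, and some results of single genes are not reported here. Members, lists and rule were chosen with earlier results of these data known. The labels give both lines the experiment names diff2 and diff3, and libraries of the same name were treated as pairs. The labels do not say what the lines shared within an experiment, and their days differ after day 10, so the pairing is uncertain. Correlations of the paired deviations were 0.414 at day 10, 0.029 at days 19 to 23 and −0.072 at days 27 to 30.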

Additional observations from a re-analysis of the deposited data

Results flagged for a closer look

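Within 1 line, 20 of 126 groups of 6 libraries had a highest or lowest value with a gap to the others beyond the 95% critical value of Dixon's test, which chance passes in about 1 of 20 groups. The E14 library of diff3 at day 19 held the highest E14 values of both H19, at 9.4 CPM against 0.611 to 3.08 CPM in the other 5, and Igf2, at 2460 CPM against 136 to 801 CPM. The E14 library of diff3 at day 10 was lowest for Igf2r, at 98.2 CPM against 256 to 326 CPM, and highest for Tor1a, at 52.7 CPM against 26.1 to 34.4 CPM, and was the single E14 library with Peg13 counts (0.117 CPM). The E14 library of diff2 at day 27 was lowest for Hexa, at 53 CPM against 87.7 to 105 CPM. The E14 library of diff2 at day 10 was highest for Nnat, at 4.32 CPM against 0.817 to 1.82 CPM, for Zrsr1, at 19.6 CPM against 10.4 to 13 CPM, and for Enpp2, at 142 CPM against 14.1 to 37.6 CPM.

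In PGK, diff2 at day 29 was apart for the chromosome 11 median, at 0.295 against −0.025 to 0.09, for Cdkn2a, at 17.6 CPM against 35.6 to 44.4 CPM, and for Slc22a18, at 0.545 CPM against 0 to 0.04 CPM. PGK diff2 at day 10 was highest for the medians of chromosome 17, at 0.082 against −0.105 to −0.069, and chromosome 7, at 0.134 against −0.113 to −0.046. It was lowest for Rpl30, at 29.5 CPM against 37.6 to 41.0 CPM, and highest for Enpp2, at 25.2 CPM against 5.24 to 8.26 CPM, and Tor1b, at 34.4 CPM against 24.5 to 27.8 CPM. PGK diff2 at day 23 was highest for Peg10, at 1900 CPM against 1050 to 1290 CPM, and Ifih1, at 17 CPM against 5.4 to 9.34 CPM. PGK diff3 at day 29 was highest for Dtna, at 7.17 CPM against 0.772 to 3.0 CPM.

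For 9 genes the line difference of days 10 to 30 differed from that of day 0 in the test of that difference (edgeR, adjusted p from 0.000239 to 0.0403). Plagl1 had a larger late difference, by 3.72 on the log2 scale, though its level fell in both lines. In PGK it measured 194 and 240 CPM at day 0 and 18.2 to 39.8 CPM from day 10 on. In E14 it measured 8.65 and 6.52 CPM at day 0 and at most 0.334 CPM later. The 6 late E14 libraries held 18 counts together, so the size of the late ratio is uncertain. Tenm3 (3.29), a teneurin of chromosome 8, and Lgals1 (2.03), a galectin, were lower in PGK at day 0, where Tenm3 measured 13.5 and 17.6 CPM in PGK against 85.3 and 133 CPM in E14. Uggt2 (−4.94), Sema5a (−6.13), Lats2 (−4.68) and Prnp (−4.11) were higher in PGK at day 0. Moxd1 measured 49.1 and 81.6 CPM in PGK and 0 in both E14 libraries at day 0, and 5.42 to 17.8 CPM in PGK and 13.8 to 36.3 CPM in E14 from day 10 on. Its fitted value of −14.0 depends on the prior count. The E14 diff3 library of day 0 had 3376500 counts. Plagl1, Tenm3, Lats2, Lgals1 and Prnp each lost the call without 1 or more of the day 0 libraries, with adjusted p up to 0.142, 0.0602, 0.156, 0.144 and 0.147.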

How the results depend on the processing

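All 57 genes examined in the line difference kept their direction in 27 alternative settings (26 with a value for Nap1l5 and Slc22a18). All had been called in the 12 libraries, which these settings reuse, so the unchanged direction is not separate evidence. Of the 57, 33 kept their call in all 12 fits that left out 1 library. Without the 2 libraries with the fewest detected genes 42 lost it, and in the fit of all 20 libraries 36 did. Counts of calls moved more than directions. Leaving out 1 library gave 103 to 784 calls, 73 to 502 higher, 29 to 282 lower, 45 to 207 higher on chromosome 8, 55 to 577 outside it, 8 to 13 paternally expressed genes higher and 2 to 8 maternally expressed genes lower. DESeq2 called 816, of which 410 higher (50.2%, against 65.6% by edgeR) and 406 lower, with 206 higher on chromosome 8 and 609 calls outside it. limma-voom called 556, 315 higher and 241 lower, 179 on chromosome 8 and 376 outside it. Counts summed per line and experiment gave 68 higher on chromosome 8. Without the 2 day 10 libraries of diff2 there were 513 calls, 325 higher and 188 lower, 187 on chromosome 8 and 326 outside it. The fit of all 20 libraries gave 43 calls, 27 higher and 16 lower, 14 on chromosome 8, 29 outside it, 5 paternally and 3 maternally expressed. With diff2 alone there were 9 calls, 8 higher and 1 lower, 0 on chromosome 8 and 9 outside it, 2 paternally and 0 maternally expressed, and with diff3 alone 4, 3 higher and 1 lower, 0 and 4, 3 and 0; these fits hold fewer samples. Without the 2 libraries with the fewest detected genes, chosen after seeing the data, 26 genes were called, 20 higher and 6 lower, 6 on chromosome 8, 20 outside it, 4 paternally and 0 maternally expressed. The cause of these changes was not tested.

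With the replicate block (experiment) 279 genes were called, 183 higher and 96 lower, and 5 in place of 2 at days 19 to 23. Nap1l5 (adjusted p = 0.0534) and Mgst1 (0.0643) lost their calls, and none of the others among the 57 did. Without the count filter 95, 84 and 11 genes were called at the 3 stages, 39 for a change between stages and 36 against day 0. Leaving out 1 library gave 0 to 20 for the change between stages and 5 to 2801 against day 0, where 2801 arose without E14 diff2, which leaves the E14 library of 3376500 counts alone and assumes that it varies like the other groups. The difference of chromosome 8 medians was 0.405 to 0.444 over all settings, that of chromosome 11 0.094 to 0.196, and that of chromosome 2 −0.028 with diff3 alone. Chromosomes 17 and 7, added after their values were seen, had −0.141 to −0.096 and −0.108 to −0.051 without 1 library. With a mean of at least 10 CPM chromosome 17 had −0.122 (adjusted exact permutation p = 0.0343) and chromosome 7 had −0.075 (0.202). With size factors from autosomal genes outside chromosome 8, chosen after seeing the data, 273 genes were called, 123 of them higher on chromosome 8. A count of 0 allows a level of up to 0.111 to 0.253 CPM (3 counts), for counting error only.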

Other observations

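Hexa and Ctbs, both lysosomal, stood among the 90 genes lower in PGK, and were chosen here after their values were seen. Hexa, which encodes a lysosomal glycosidase subunit, fell by 1.30 on the log2 scale (adjusted p = 0.00459, edgeR), and Ctbs, which encodes chitobiase, fell by 0.75. Their values overlapped between the lines, and Ctbs lost its call in 9 of 12 fits without 1 library. Apoe, a lipid carrier, fell by 1.55, Slc2a3, a glucose transporter, by 1.21, and Epcam, an epithelial adhesion molecule, by 0.81, each without overlap. Slc2a3 and Epcam lost their calls in 7 and 5 of those fits. No test was made of these genes as a group.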
